A study of Mus musculus with 6 samples.

Results

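The genes described here are the nuclear-encoded members of respiratory complexes II to V and their assembly factors. They were taken from the table of read counts by row name: Sdha to Sdhd and names beginning Sdhaf for complex II, names beginning Uqcr or Uqcc together with Cyc1 for complex III, names beginning Cox and a digit for complex IV, and the Atp5 names with Atpif1 for complex V. The pattern found 70 rows, of which 2 carried pseudogene names and were left out. The remaining 68 of 45527 named rows, called genes below, comprised 8 of complex II, 13 of complex III, 29 of complex IV and 18 of complex V. Those of complex III include a second row bearing the name Uqcrc1. Those of complex IV include 2 rows annotated as processed pseudogenes, Cox20b and Cox6c2. The rule used names only and no measured value, but it was set with earlier results of these data known.

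Gene expression was measured by RNA sequencing of satellite cells, the stem cells of skeletal muscle, sorted from injured hindlimb muscle of mice. The 3 libraries labelled Paxbp1-iKO came from mice of the genotype Pax7creER, Paxbp1flox/flox, R26R-YFP, and the 3 control libraries from mice of the genotype Pax7creER, Paxbp1flox/+, R26R-YFP. All mice thus carried a tamoxifen-inducible Cre driven by the Pax7 locus, which acts in satellite cells, and at least 1 floxed Paxbp1 allele, so control cells may have had fewer than 2 intact alleles. Both groups received 30 µl of cardiotoxin, a snake toxin that destroys muscle fibres, in the lower hindlimb, and cells positive for yellow fluorescent protein were sorted 24 h later. Neither ages nor tamoxifen doses are stated in the sources used here. The design speaks of 3 pairs of mice, but what makes a pair, whether library numbers mark the pairs and which animal gave which library are not stated, and the p-values therefore reflect the spread among the 6 libraries only.

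Complexes II, III and IV pass electrons from succinate and other fuels through ubiquinone and cytochrome c to oxygen, and complexes III and IV pump protons across the inner mitochondrial membrane as they do so. Complex V, the ATP synthase, lets the protons flow back through a rotating ring of c subunits, and the turning of its central stalk drives ATP synthesis in the F1 head. Complex II is built from nuclear genes alone, whereas complexes III, IV and V also contain subunits encoded in the mitochondrial genome. In skeletal muscle, satellite cells at rest contain few mitochondria and acquire more as they activate and divide.

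Total counts were 27710766, 28050748 and 23327359 in iKO-labelled libraries 1 to 3 and 23508654, 27198506 and 27309423 in controls 1 to 3. Levels are given as CPM, counts scaled to the TMM-adjusted library size. In the libraries labelled Paxbp1-iKO, Paxbp1 itself was higher, with 96.2, 108 and 127 CPM in iKO-labelled libraries 1 to 3, against 70.8, 74.1 and 61.0 CPM in controls 1 to 3 (log2 fold change 0.68 ± 0.13, adjusted p = 0.00954). This goes against the label of a knockout, and counts over the whole gene cannot show whether a floxed part was deleted, so every direction below is drawn from the labels alone. All 8 satellite cell markers were detected in both groups. Their summed level was 11182 to 11475 CPM in the iKO-labelled libraries and 8077 to 8767 CPM in the controls, with 5 called higher and 2 called lower. The sum hides opposite directions, as log2 fold changes ran from -0.68 to 2.51. In every iKO-labelled library 5 markers lay above all controls and 3 below, and all 8 had an unadjusted edgeR p under 0.05. Of 10 muscle fibre markers, 9 were tested and only Acta1 was called (lower), and their sum was 20.4 to 30.3 CPM in the iKO-labelled libraries and 30.0 to 82.0 CPM in the controls. No marker of macrophages, neutrophils, endothelium or fibro-adipogenic cells was called by edgeR, by DESeq2 or at an unadjusted p under 0.05. Their summed levels overlapped. In the iKO-labelled libraries they were 103 to 202 CPM for macrophages, 5.22 to 7.09 CPM for neutrophils, 43.7 to 52.5 CPM for endothelium and 1053 to 1272 CPM for fibro-adipogenic cells. In the controls they were 120.2 to 195 CPM for macrophages, 2.98 to 10.4 CPM for neutrophils, 33.0 to 112 CPM for endothelium and 1164 to 1226 CPM for fibro-adipogenic cells.

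The called genes of complexes II and III were all lower in the iKO-labelled libraries, with Sdha, Sdhb and Cyc1 at 52.4%, 52.5% and 50.4% of their control means. Those of complex V, the ATP synthase, comprised 8 lower and 2 higher, whereas complex IV had 2 lower and 2 higher. Assembly factors had 1 call among 16 tested. Of the 68 genes, 62 passed the filter on low counts and were tested, and 16 of them were lower, 4 were higher and 42 were not called at an adjusted p under 0.05. Values after ± are standard errors of the fit for log2 fold changes and SDs for levels. Calls rest on edgeR's quasi-likelihood test with Benjamini-Hochberg adjustment over all 16252 genes tested. Across all those genes 20.4% were called, 12.3% lower and 8.15% higher, against 25.8% lower and 6.45% higher among the 62. The median log2 fold change of the 62 was -0.13, and that of all tested genes was 0.02. In 23 of the 62 every iKO-labelled library lay below every control, and in 11 every one lay above. Over all tested genes such separation was found in 39.8%, below in 20.9% and above in 18.9%. These are bulk samples, in which fewer cells of a type and less RNA per cell cannot be told apart. The satellite cell markers moved with the groups as given above. Of the 9 fibre markers tested, 7 overlapped between the groups, though all 9 had negative log2 fold changes. The part of either kind of marker in the calls was not tested. Without iKO 2, control 2 or control 3 the count of members lower was 9 and without iKO 3 it was 10, and 1 or 2 were higher whichever library was left out. Scaling by library totals in place of TMM factors changed the split to 10 lower and 8 higher and brought the median to -0.000401, as it moved the median of all genes up by 0.13.

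**Figure D1:**
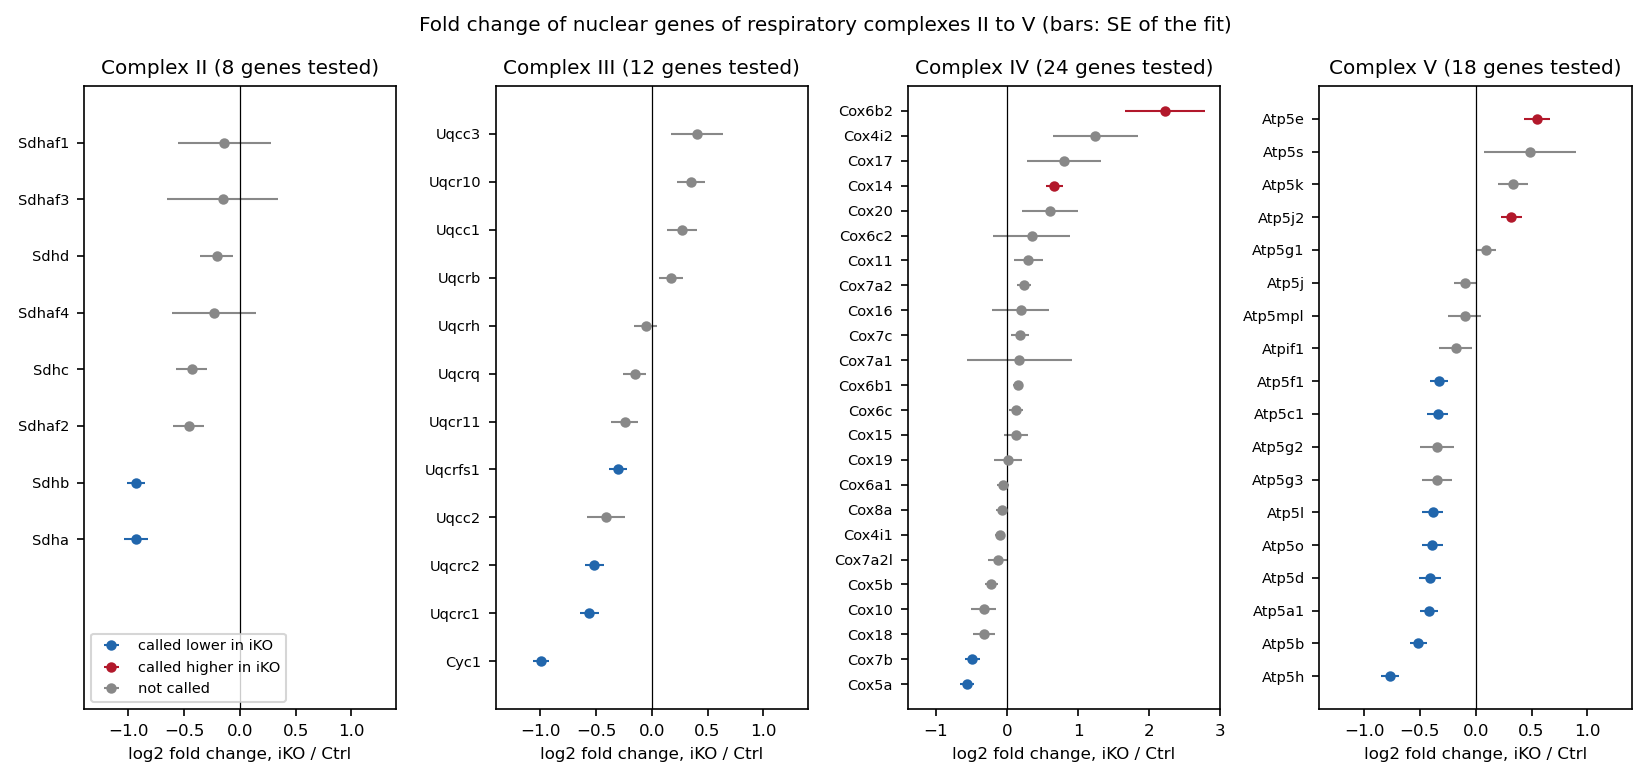
Log2 fold change of iKO-labelled libraries over controls for the 62 tested genes, 1 panel per complex, with bars for the standard error of the fit. Blue points are genes called lower, red points genes called higher and grey points genes not called. The called genes of complexes II and III all lie left of 0, and complexes IV and V hold calls on both sides.

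By complex, 2 of 8 tested genes of complex II were lower (25.0%), 4 of 12 of complex III (33.3%), 2 of 24 of complex IV (8.33%) and 8 of 18 of complex V (44.4%). Calls in the higher direction numbered 2 in complex IV (8.33%) and 2 in complex V (11.1%), with 0 in complexes II and III by edgeR. Over all tested genes 12.3% were lower and 8.15% were higher. At an unadjusted p under 0.05, complex II still had 0 higher and complex III had 1, and DESeq2 called 1 higher in complex III, which was Uqcr10. Median log2 fold changes were -0.33 in complex II, -0.20 in complex III, 0.14 in complex IV and -0.34 in complex V. These shares and medians mix kinds of gene. Complex IV held 10 subunits, 9 assembly factors (median 0.19), 3 tissue isoforms at low levels (median 1.24), a supercomplex factor and a processed pseudogene. Of the subunits alone, 2 of 4 were lower in complex II, 4 of 9 in complex III and 2 of 10 in complex IV. Their medians were -0.68, -0.24 and -0.06 in that order. In complex V the count of genes lower was 3, with 0 or 1 higher, when iKO 2, iKO 3, control 2 or control 3 was left out, and complex III then had 3 or 4 lower. Calls over all genes fell as well, from 3315 to 2053, 2103, 2463 and 2313 in the same order. Without iKO 1 or control 1 they numbered 2448 and 2816. The median of complex V stayed between -0.38 and -0.23 whichever library was left out. The order of the complexes by calls was thus not stable with fewer libraries, and the differences between complexes were not tested.

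The promoters of 3 of these genes are shown because they carry the matches that the gene families of respiration are known for: Sdha and Atp5h were among the genes with the lowest fold changes, and Atp5e was higher. Each run is the 250 bases before the transcription start in RefSeq's annotation of GRCm38.p6, read 5′ to 3′ on the minus strand, which is the strand of all 3 genes. Capitals mark matches to the nearly palindromic site of the nuclear respiratory factor NRF1 (GCGC, then any base, then TGCGC), or to CCGGAAG, a core site of ETS factors such as GABPA. All of them lie on the opposite strand of the run, so the capitals read as the reverse complement. The windows are chr13:74350241-74350490 for Sdha, chr11:115419920-115420169 for Atp5h and chr2:174464102-174464351 for Atp5e.
Sdha: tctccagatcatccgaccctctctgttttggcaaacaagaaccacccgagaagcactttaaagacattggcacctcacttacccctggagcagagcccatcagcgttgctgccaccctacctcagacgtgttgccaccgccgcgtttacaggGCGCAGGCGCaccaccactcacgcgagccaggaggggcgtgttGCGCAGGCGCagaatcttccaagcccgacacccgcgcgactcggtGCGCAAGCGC
Atp5h: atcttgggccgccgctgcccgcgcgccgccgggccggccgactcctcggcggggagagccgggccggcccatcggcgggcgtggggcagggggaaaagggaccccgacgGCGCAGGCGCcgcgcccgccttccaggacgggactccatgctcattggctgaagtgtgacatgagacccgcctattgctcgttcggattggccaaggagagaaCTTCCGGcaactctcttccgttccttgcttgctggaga
Atp5e: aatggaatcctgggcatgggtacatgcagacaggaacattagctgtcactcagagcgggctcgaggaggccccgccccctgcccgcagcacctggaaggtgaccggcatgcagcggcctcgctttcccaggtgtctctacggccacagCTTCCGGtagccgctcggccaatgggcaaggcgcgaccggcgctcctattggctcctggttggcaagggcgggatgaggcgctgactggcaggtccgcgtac

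Sdha held 3 NRF1 matches, which began 98, 55 and 10 bases before the start. Atp5h held an NRF1 match 141 bases before the start and an ETS match 38 bases before it, and Atp5e held an ETS match 102 bases before it. Of the 68 genes, 50 had a promoter in the RefSeq table, searched on both strands from 250 bases before to 50 bases after the start. NRF1 matches stood in 13 of the 50 (26.0%), against 4.78% of all 27025 promoters of the same length, and ETS matches in 19 of the 50 (38.0%), against 9.12% of all. The YY1 sequence AAGATGGC stood in 5 of the 50, against 2.88% of all, and the estrogen-related receptor sequence TCAAGGTCA in 2 of the 50, against 0.407% of all. The E-box CACGTG stood in 6 of the 50, against 7.24% of all, and CCAAT in 24 of the 50 (48.0%), against 37.9% of all. Matches of different motifs did not overlap, whereas matches of the same motif on opposite strands shared bases in Uqcrc1, Cox6a1, Atp5g1, Atp5g2 and Atp5k. By call, NRF1 matches stood in 4 of 13 genes called lower, 0 of 4 called higher and 9 of 31 not called, and ETS matches in 3 of the 13, 2 of the 4 and 14 of the 31. A match is a description of the letters and not a site of binding.

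Complex II, succinate dehydrogenase, was lower in both of its catalytic subunits. Gene positions are those of GENCODE M21 on GRCm38. Sdha, the flavoprotein that oxidises succinate (chr13:74322254-74350280, minus strand), had 172, 167 and 144 CPM in iKO-labelled libraries 1 to 3, against 271, 320.4 and 331 CPM in controls 1 to 3. Every iKO-labelled library lay below every control, and the mean was 52.4% of the control mean (log2 fold change -0.93 ± 0.11, adjusted p = 0.000907). Sdhb, whose iron-sulfur clusters carry the electrons onwards (chr4:140961203-140979193, plus strand), had 85.1, 88.6 and 82.4 CPM in iKO-labelled libraries 1 to 3, against 164, 165 and 159 CPM in controls 1 to 3. The groups were again apart, at 52.5% of the control mean (log2 fold change -0.93 ± 0.081, adjusted p = 0.000326). Both calls held in all 19 alternatives.

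The membrane anchors Sdhc and Sdhd, which bind ubiquinone, had smaller differences and were not called. Sdhc had 78.4, 63.0 and 74.8 CPM in iKO 1 to 3, against 83.1, 99.997 and 109 CPM in controls 1 to 3, and the groups did not overlap (log2 fold change -0.43 ± 0.14, adjusted p = 0.0599). Sdhd had 183, 159.9 and 164 CPM in iKO 1 to 3, against 152, 200.2 and 233 CPM in controls 1 to 3, with iKO 1 to 3 inside the range of the controls (log2 fold change -0.21 ± 0.15, adjusted p = 0.393). Of the 4 assembly factors, Sdhaf2, which attaches the flavin to Sdha, came nearest to a call. It had 28.7, 26.4 and 24.5 CPM in iKO 1 to 3, against 35.0, 35.1 and 39.3 CPM in controls 1 to 3, so that the groups did not overlap (log2 fold change -0.46 ± 0.14, adjusted p = 0.0506). Sdhaf4, which binds Sdha during assembly, had 6.73, 3.03 and 4.54 CPM in iKO 1 to 3, against 4.65, 5.10 and 7.01 CPM in controls 1 to 3 and overlapped (log2 fold change -0.23 ± 0.38, adjusted p = 0.735). Sdhaf1 and Sdhaf3, which help place the clusters of Sdhb, were below 10 CPM in every library and overlapped. All 8 fold changes of complex II were negative in the fit over all 6 libraries, but Sdhaf1 turned positive without iKO 3, Sdhaf4 without iKO 2, and Sdhaf3 without iKO 3, control 1 or control 3 and under limma-voom. DESeq2 and limma-voom each called 4 genes lower, Sdhc and Sdhaf2 in addition to the catalytic pair, and without control 1 the adjusted p of Sdhc was 0.0347.

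Complex III, the cytochrome bc1 complex, was lower in its large catalytic and core subunits. Cyc1, the cytochrome that hands electrons to cytochrome c (chr15:76343523-76346260, plus strand), had 154, 144 and 153 CPM in iKO-labelled libraries 1 to 3, against 293, 293 and 310.0 CPM in controls 1 to 3. The groups were far apart, at 50.4% of the control mean (log2 fold change -0.99 ± 0.072, adjusted p = 0.000149), and the call held in all 19 alternatives. Uqcrc1, a core protein on the matrix side (chr9:108936633-108949623, plus strand), had 311, 293 and 299.7 CPM in iKO-labelled libraries 1 to 3, against 397, 489 and 446 CPM in controls 1 to 3. Its groups did not overlap (log2 fold change -0.56 ± 0.088, adjusted p = 0.00381). Uqcrc2, the other core protein (chr7:120635176-120659524, plus strand), had 128, 117 and 121 CPM in iKO-labelled libraries 1 to 3, against 163, 178 and 182 CPM in controls 1 to 3. Its groups did not overlap either (log2 fold change -0.52 ± 0.085, adjusted p = 0.00479). Exons of Pdzd9 on the opposite strand cover 19.7% of the exon bases of Uqcrc2, and without strand information reads there cannot be assigned.

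Uqcrfs1, the Rieske iron-sulfur protein (chr13:30540308-30545362, minus strand), had 175, 164 and 191 CPM in iKO-labelled libraries 1 to 3, against 216, 221 and 219 CPM in controls 1 to 3. The difference was smaller, with separate groups (log2 fold change -0.30 ± 0.08, adjusted p = 0.0324), and the call ended in 12 of the 19 alternatives, among them the omission of iKO 1, iKO 2, control 1, control 2 or control 3 (adjusted p 0.0687 to 0.119). None of the 5 small accessory subunits was called. Uqcr10, 1 of them, had 106, 103 and 100.4 CPM in iKO 1 to 3, against 67.3, 82.2 and 92.2 CPM in controls 1 to 3, and every iKO-labelled library exceeded every control (log2 fold change 0.35 ± 0.13, adjusted p = 0.0909), which DESeq2 called (adjusted p = 0.0297). Uqcrb, Uqcrh, Uqcrq and Uqcr11 had log2 fold changes of 0.17, -0.06, -0.15 and -0.24 and were not called, and the sign of Uqcrh turned under upper-quartile factors, library totals, the filter at 5 CPM and once GC and length trends were taken out. Among the assembly factors, which stabilise newly made cytochrome b, Uqcc2 had 18.3, 18.5 and 16.1 CPM in iKO 1 to 3, against 22.1, 21.6 and 26.7 CPM in controls 1 to 3 (log2 fold change -0.41 ± 0.17, adjusted p = 0.132). The groups of Uqcc2 did not overlap, and Uqcc1 and Uqcc3 lay above every control without a call (log2 fold changes 0.27 and 0.40).

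**Figure D2:**
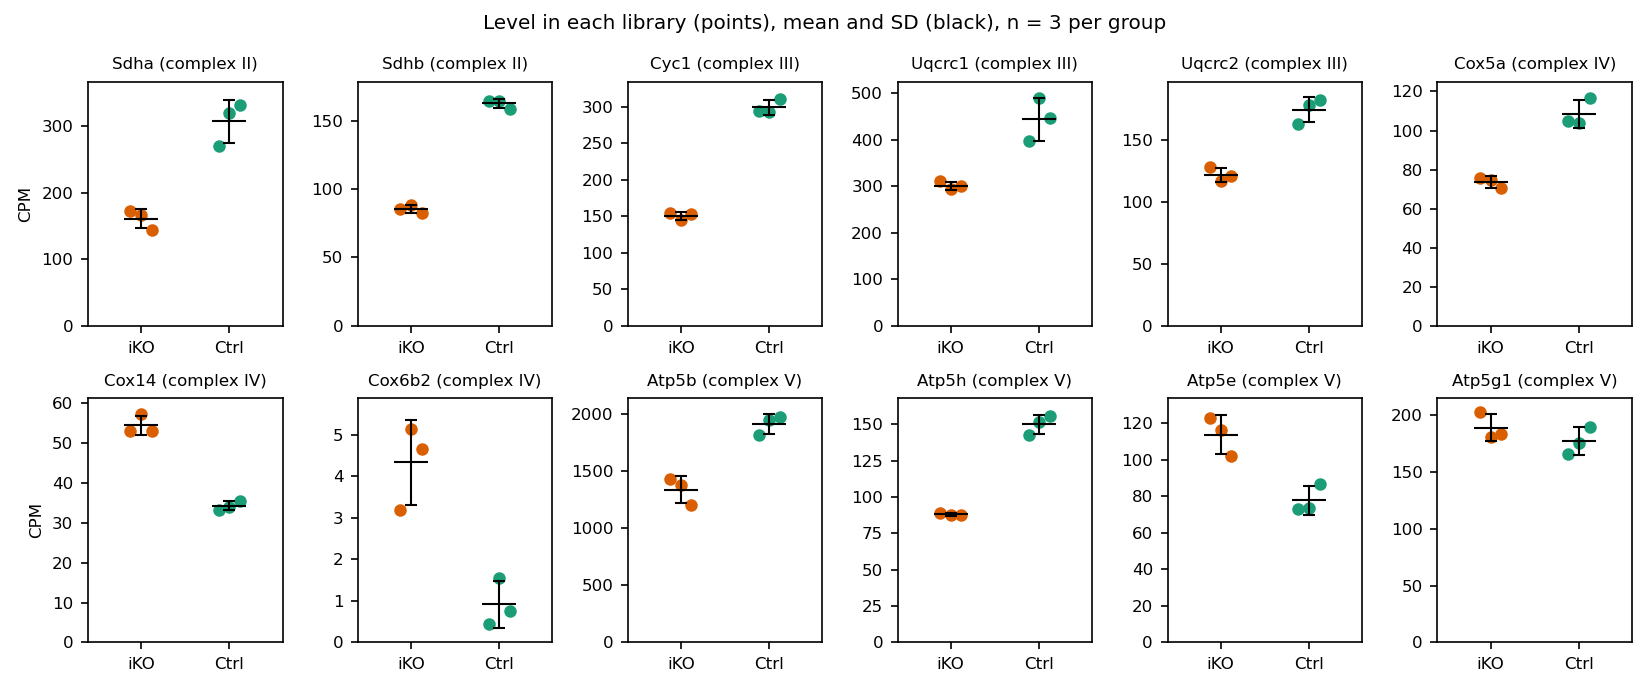
CPM in each library for 12 genes of complexes II to V, with iKO-labelled libraries in orange left of controls in green and with mean and SD in black (n = 3 per group), all axes starting at 0. Sdha, Sdhb, Cyc1, Uqcrc1, Uqcrc2, Cox5a, Atp5b and Atp5h lie below the controls in every iKO-labelled library, Cox14, Cox6b2 and Atp5e above them, and Atp5g1 overlaps.

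Complex IV, cytochrome c oxidase, had 8.33% of 24 tested genes lower and 8.33% higher, against 12.3% and 8.15% of all tested genes. Of its 10 nuclear subunits 2 were lower and 8 were not called, with a median log2 fold change of -0.06. Cox5a, a subunit on the matrix side (chr9:57521274-57532426, plus strand), had 75.7, 74.9 and 70.4 CPM in iKO-labelled libraries 1 to 3, against 105, 104 and 117 CPM in controls 1 to 3. The groups did not overlap, at 67.9% of the control mean (log2 fold change -0.56 ± 0.10, adjusted p = 0.00583), and the call held in all 19 alternatives. A non-coding transcript on the opposite strand covers 12.8% of its exon bases. Cox7b, a small membrane subunit (chrX:106015700-106022450, plus strand), had 55.0, 51.9 and 48.8 CPM in iKO-labelled libraries 1 to 3, against 69.8, 75.1 and 73.6 CPM in controls 1 to 3. Its groups were apart (log2 fold change -0.49 ± 0.11, adjusted p = 0.0152), and the call ended without iKO 2, iKO 3, control 2 or control 3 (adjusted p 0.0521 to 0.0581).

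Cox5b, which binds zinc on the matrix side, had 104, 95.4 and 95.1 CPM in iKO 1 to 3, against 107, 114 and 122 CPM in controls 1 to 3. Its iKO-labelled libraries lay below the controls without a call (log2 fold change -0.22 ± 0.094, adjusted p = 0.144). Cox7a2, the widely expressed form of subunit VIIa, had 151, 151 and 151 CPM in iKO 1 to 3, against 121, 120.4 and 143 CPM in controls 1 to 3. Here the iKO-labelled libraries lay above the controls (log2 fold change 0.24 ± 0.095, adjusted p = 0.122), a difference that passed the test under upper-quartile factors, library totals, the filter at 5 CPM and on filtered FPKM (adjusted p 0.029 to 0.0497). Cox6b1, which faces the intermembrane space, had 165, 166 and 170.4 CPM in iKO 1 to 3, against 149, 148 and 153 CPM in controls 1 to 3. It too lay above the controls without a call (log2 fold change 0.16 ± 0.073, adjusted p = 0.184). Cox6c and Cox7c overlapped, with log2 fold changes of 0.13 and 0.18.

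Cox4i1, Cox6a1 and Cox8a, the ubiquitous forms of subunits IV, VIa and VIII, overlapped between the groups. Cox4i1 averaged 449 ± 11.1 CPM in the iKO-labelled libraries and 482 ± 22.3 CPM in the controls (SD, n = 3 each; log2 fold change -0.10 ± 0.065, adjusted p = 0.332). Its libraries read 459.9, 449.6 and 438 CPM in iKO 1 to 3, against 459, 484 and 504 CPM in controls 1 to 3. Its sign turned under scaling by library totals, and exons of Emc8 on the opposite strand cover 9.94% of its exon bases. Cox6a1 had 182, 173 and 166 CPM in iKO 1 to 3, against 173, 177 and 193 CPM in controls 1 to 3 (log2 fold change -0.058 ± 0.081, adjusted p = 0.686). Cox8a had 184, 182 and 168 CPM in iKO 1 to 3, against 173, 188 and 199 CPM in controls 1 to 3 (log2 fold change -0.069 ± 0.085, adjusted p = 0.641). For Cox6a1 and Cox8a the libraries interleaved, and the sign turned under upper-quartile factors, library totals and the filter at 5 CPM, and for Cox6a1 also without control 3.

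The 2 genes of complex IV that were higher are not part of its usual subunit set. Cox14, a small assembly factor that in yeast and human cells binds newly made COX1 protein (chr15:99725618-99728136, plus strand), had 53.1, 57.1 and 53.0 CPM in iKO-labelled libraries 1 to 3, against 33.3, 34.0 and 35.5 CPM in controls 1 to 3. The groups were apart by more than their spread, with a mean of 159% of the control mean (log2 fold change 0.67 ± 0.12, adjusted p = 0.0059), and the call held in all 19 alternatives. Cox6b2, known as the testis form of subunit VIb (chr7:4751792-4753094, minus strand), had 91, 151 and 115 counts in iKO-labelled libraries 1 to 3, against 10, 40 and 20 counts in controls 1 to 3. In CPM these were 3.19, 5.15 and 4.66 CPM in iKO 1 to 3, against 0.447, 1.55 and 0.766 CPM in controls 1 to 3, so that every iKO-labelled library exceeded every control at a low level (log2 fold change 2.23 ± 0.56, adjusted p = 0.0266). The call ended without iKO 2, iKO 3, control 1 or control 3 (adjusted p 0.0532 to 0.0978), and the log2 fold change on log2(FPKM + 1) without a filter was 1.44.

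The other 8 assembly factors of complex IV were not called. Cox10 and Cox15, which make haem A, had log2 fold changes of -0.33 and 0.13, and the membrane insertase Cox18 had -0.33, with every iKO-labelled library below every control. The copper-handling factors Cox11, Cox17 and Cox19 had 0.30, 0.80 and 0.02, and the sign of Cox19 turned without iKO 3, control 2 or control 3. Cox16 and Cox20, which act in the maturation of COX2 protein, had 0.19 and 0.61. Several of these genes share exon bases with another gene: Hnrnpu on the opposite strand covers 91.1% of the exon bases of Cox20, Gm20498 covers 56.8% of Cox16, and Tom1l1 covers 48.3% of Cox11. How reads in shared bases were counted is not stated. For complex II, E130208F15Rik covers 69.6% of Sdhaf1, and for complex V, Gabpa on the opposite strand covers 12.7% of Atp5j.

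In complex V, all 5 subunits of the F1 head and its central stalk were called, 4 of them lower. Atp5b, the catalytic beta subunit (chr10:128083273-128090391, plus strand), had 1426, 1381 and 1200.4 CPM in iKO-labelled libraries 1 to 3, against 1814, 1946 and 1975 CPM in controls 1 to 3. The groups did not overlap, at 69.9% of the control mean (log2 fold change -0.52 ± 0.076, adjusted p = 0.00288). Atp5a1, the alpha subunit on chromosome 18, had 990.1, 911 and 870.2 CPM in iKO-labelled libraries 1 to 3, against 1123, 1261 and 1317 CPM in controls 1 to 3. It was also lower in every iKO-labelled library (log2 fold change -0.42 ± 0.08, adjusted p = 0.00882). Both calls, and that of Uqcrc1 in complex III, ended only on log2(FPKM + 1) without a filter (adjusted p 0.0637 to 0.123). Atp5d, the delta subunit of the central stalk (chr10:80138632-80145818, plus strand), had 218, 193 and 179 CPM in iKO-labelled libraries 1 to 3, against 248, 257 and 279.7 CPM in controls 1 to 3. Its groups were separate (log2 fold change -0.41 ± 0.10, adjusted p = 0.0198). Atp5c1, the gamma subunit that turns inside the head, averaged 217 ± 17.5 CPM in the iKO-labelled libraries and 275 ± 20.1 CPM in the controls (log2 fold change -0.34 ± 0.091, adjusted p = 0.0328).

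Atp5e, the epsilon subunit that sits beside delta at the foot of the central stalk (chr2:174461072-174464105, minus strand), went the other way. It had 123, 116 and 102 CPM in iKO-labelled libraries 1 to 3, against 73.1, 73.4 and 86.6 CPM in controls 1 to 3. Every iKO-labelled library exceeded every control, at 146% of the control mean (log2 fold change 0.55 ± 0.12, adjusted p = 0.0135). The call ended without iKO 1, iKO 2 or control 2 (adjusted p 0.0508 to 0.0573).

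The peripheral stalk and membrane part held 4 genes that were lower and 1 that was higher of 8. Atp5h, the d subunit of the peripheral stalk (chr11:115415689-115419962, minus strand), had 89.1, 87.6 and 87.4 CPM in iKO-labelled libraries 1 to 3, against 142, 152 and 156 CPM in controls 1 to 3. The groups were far apart relative to their spread, at 58.7% of the control mean (log2 fold change -0.77 ± 0.083, adjusted p = 0.000722), and the call held in all 19 alternatives. Atp5f1, the b subunit of the same stalk (chr3:105942698-105960099, minus strand), had 246, 232 and 216 CPM in iKO-labelled libraries 1 to 3, against 280.0, 288 and 305 CPM in controls 1 to 3. Its groups did not overlap (log2 fold change -0.33 ± 0.078, adjusted p = 0.0211). Atp5o, which joins the stalk to the head, averaged 135 ± 8.02 CPM in the iKO-labelled libraries and 177 ± 15.4 CPM in the controls (log2 fold change -0.39 ± 0.10, adjusted p = 0.0232). Atp5l, the g subunit of the membrane part, averaged 56.2 ± 0.384 CPM in the iKO-labelled libraries and 73.5 ± 0.728 CPM in the controls (log2 fold change -0.39 ± 0.10, adjusted p = 0.0264). For both genes every iKO-labelled library lay below every control. Antisense genes cover up to 18.1% of the exon bases of Atp5o, and another annotated gene of the same name on the same strand shares 12.3% of them.

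Atp5j2, the f subunit of the membrane part (chr5:145183698-145192062, minus strand), had 86.3, 84.2 and 86.2 CPM in iKO-labelled libraries 1 to 3, against 66.8, 69.8 and 69.2 CPM in controls 1 to 3. It lay above every control with an adjusted p close to the threshold (log2 fold change 0.32 ± 0.092, adjusted p = 0.0448), and the call ended whichever of the 6 libraries was left out (adjusted p 0.0935 to 0.116). Atp5k, the e subunit beside it, was not called although every iKO-labelled library exceeded every control (log2 fold change 0.33). Atp5j, the coupling factor of the peripheral stalk, and the small membrane protein Atp5mpl had -0.098 and -0.10, and both turned positive under library totals. The calls of Atp5c1, Atp5d, Atp5f1 and Atp5o ended without iKO 2, iKO 3, control 2 or control 3 (adjusted p 0.0528 to 0.117), and that of Atp5l whichever library was left out (adjusted p 0.0595 to 0.0818). Under library totals these 5 calls ended as well (adjusted p 0.0663 to 0.132), which left 3 genes of complex V lower.

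The c ring is encoded by 3 genes, Atp5g1, Atp5g2 and Atp5g3, whose proteins differ in the targeting sequence and yield the same mature subunit. None was called by edgeR or DESeq2, and 1 of them, Atp5g3, had an unadjusted p under 0.05. Atp5g1 had 203, 181 and 183 CPM in iKO 1 to 3, against 166, 176 and 189.8 CPM in controls 1 to 3 and overlapped (log2 fold change 0.094 ± 0.088, adjusted p = 0.523). Atp5g2 had 52.9, 41.4 and 39.9 CPM in iKO 1 to 3, against 52.5, 54.6 and 63.2 CPM in controls 1 to 3, with iKO 1 inside the control range (log2 fold change -0.34 ± 0.15, adjusted p = 0.157). Atp5g3 had 88.3, 83.2 and 70.5 CPM in iKO 1 to 3, against 94.5, 94.5 and 119 CPM in controls 1 to 3, all below the controls (log2 fold change -0.35 ± 0.13, adjusted p = 0.113). Within the summed length-scaled counts of the 3 genes, Atp5g1 took 37.8% ± 1.87 in the iKO-labelled libraries and 30.9% ± 1.26 in the controls (SD, n = 3 each). The share of Atp5g2 was 26.0% ± 1.61 in the iKO-labelled libraries and 29.0% ± 0.195 in the controls, and that of Atp5g3 was 36.2% ± 1.88 in the iKO-labelled libraries and 40.1% ± 1.44 in the controls. The groups did not overlap for any of the 3 shares, each with p = 0.1 in an exact two-sided permutation test. That is the smallest p this design allows, and it was 0.111 after adjustment over 10 isoform shares. Processed copies of such small genes are common in the mouse genome, and the sources used here do not state how reads matching several places were counted.

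Atpif1, which binds the head and blocks ATP hydrolysis, had 35.1, 37.3 and 36.6 CPM in iKO 1 to 3, against 34.2, 47.1 and 42.1 CPM in controls 1 to 3. The groups overlapped (log2 fold change -0.18 ± 0.15, adjusted p = 0.47), and an antisense gene covers 33.7% of its exon bases. Atp5s, named coupling factor B, was at 3.12 to 6.73 CPM in the iKO-labelled libraries and 2.73 to 5.10 CPM in the controls and was not called.

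The isoforms of complex IV known from particular tissues were at low levels. Cox4i2, the form of subunit IV known from lung, had 2.31, 1.23 and 2.11 CPM in iKO 1 to 3, against 0.492, 0.966 and 0.920 CPM in controls 1 to 3. Every iKO-labelled library exceeded every control (log2 fold change 1.24 ± 0.60, adjusted p = 0.197), and on log2(FPKM + 1) with a filter the difference passed the test (adjusted p = 0.0476). Its share of the length-scaled counts of Cox4i1 and Cox4i2 was 0.817% ± 0.246 in the iKO-labelled libraries and 0.320% ± 0.0965 in the controls. Likewise Cox6b2 took 1.63% ± 0.370 of the sum of Cox6b1 and Cox6b2 in the iKO-labelled libraries and 0.391% ± 0.244 in the controls. Both shares were apart between groups (exact permutation p = 0.1 each, adjusted 0.111).

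The forms known from heart and skeletal muscle were near 0. Cox7a1 had 0.421, 0.443 and 0.892 CPM in iKO 1 to 3, against 0.671, 0.502 and 0.383 CPM in controls 1 to 3, with overlapping groups (log2 fold change 0.17 ± 0.74, adjusted p = 0.903), and its sign turned without iKO 3. In the sum with Cox7a2 and Cox7a2l it took 0.453% ± 0.217 in the iKO-labelled libraries and 0.439% ± 0.166 in the controls (exact permutation p = 0.9). Cox7a2 took 65.8% ± 1.80 in the iKO-labelled libraries and 60.0% ± 4.46 in the controls. Cox7a2l, which takes part in supercomplexes of complexes III and IV, took 33.8% ± 1.98 in the iKO-labelled libraries and 39.5% ± 4.52 in the controls (exact permutation p = 0.1 each, adjusted 0.111). With a library left out in turn, the difference in share ran from 3.20 to 7.34 percentage points for Cox7a2 and from -7.45 to -3.20 for Cox7a2l, against 5.75 and -5.77 over all 6 libraries, and the smallest differences were those without control 2. Cox7a2l had 133, 119 and 112 CPM in iKO 1 to 3, against 108, 153 and 137 CPM in controls 1 to 3 (log2 fold change -0.13 ± 0.14, adjusted p = 0.593), with overlapping groups, and its sign turned under library totals. Cox6a2 had 0, 0 and 1 counts in iKO-labelled libraries 1 to 3, against 22, 5 and 0 counts in controls 1 to 3. Cox8b had 9, 11 and 4 counts in iKO-labelled libraries 1 to 3, against 11, 4 and 0 counts in controls 1 to 3. Neither was tested, and the summed fibre markers given above were also highest among the controls. The part of fibre RNA in these counts was not tested.

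Of the remaining genes that failed the filter, Cox7b2, a testis form, had 3 counts in iKO 1 and none in the other 5 libraries, and Cox8c and a second row bearing the name Uqcrc1 had none in any library. Cox20b, annotated as a processed pseudogene, had 3, 14 and 1 counts in iKO-labelled libraries 1 to 3, against 4, 25 and 5 counts in controls 1 to 3. Cox6c2, annotated likewise, was tested and was not called (log2 fold change 0.35).

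Over all 4 complexes, 16 of 39 subunits were lower and 2 were higher, with a median log2 fold change of -0.24. Of 16 assembly factors 1 was higher and 0 were lower by edgeR, with a median of 0.07. At an unadjusted p under 0.05, 2 assembly factors were lower, and DESeq2 and limma-voom each called 1 lower. The difference between the kinds of gene was not tested. Levels per length differed as well. The median of the mean deposited FPKM over the subunits of complexes II, III, IV and V was 39.3, 107, 152 and 59.1 in the iKO-labelled libraries and 74.1, 105, 159.7 and 72.8 in the controls. For the assembly factors of complexes II, III and IV it was 3.23, 11.3 and 6.89 in the iKO-labelled libraries and 3.70, 8.84 and 6.78 in the controls. At these lower levels the fit had wider errors, up to 0.52 on the log2 scale for Cox17, against 0.065 for Cox4i1. Atp5b had the highest FPKM of complex V, at 311 in the iKO-labelled libraries and 441 in the controls, as means over 3 libraries. In complex IV the highest FPKM of the iKO-labelled libraries was that of Cox6b1, at 327 in the iKO-labelled libraries and 289.8 in the controls, whereas the highest of the controls was that of Cox8a, at 322 in the iKO-labelled libraries and 334 in the controls.

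The fold changes also varied with the size of the encoded protein. Over the 61 tested genes with an annotated coding sequence, Spearman's rho between coding length and log2 fold change was -0.56, a description across genes that share libraries and scaling. Over all 13361 tested protein-coding genes with a length it was 0.04. With the length of the whole messenger RNA in place of the coding length it was -0.29 over the 61, and with GC content 0.01. Of 20 genes with under 300 coding nucleotides, 1 was lower and 4 were higher, with a median log2 fold change of 0.18. Of 24 genes with at least 300 and under 600 nucleotides, 4 were lower and 0 were higher, with a median of -0.19. Of 17 genes with 600 or more, 11 were lower and 0 were higher, with a median of -0.34. These bounds were chosen after the values had been seen. All 4 genes called higher fall in the shortest class: Atp5e encodes 52 residues, Cox14 57, Cox6b2 88 and Atp5j2 88. Those called lower run from the 80 residues of Cox7b to the 664 of Sdha.

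Short genes in general leaned the same way, and the shortest class of members lay near them. Over all 275 tested protein-coding genes with under 300 coding nucleotides, 15.3% were higher and 9.09% were lower, with a median of 0.13. The members of that class, with 4 of 20 higher, 1 lower and a median of 0.18, were not tested against them. Over the 1467 genes of the middle class, 8.79% were higher and 12.7% were lower, with a median of -0.01. The members of that class had 16.7% lower, near this share. Over the 11619 genes with 600 or more, 8.51% were higher and 14.7% were lower, with a median of -0.02. Once trends on GC content and exon length were removed, rho over the 61 genes was -0.52. Under library totals the medians of the 3 classes of members were 0.31, -0.06 and -0.21, so that the middle class lay near 0 while the order held. Those of all protein-coding genes were then 0.26, 0.12 and 0.11, so that the shortest members lay close to short genes in general. In that class 23.3% of all genes and 40.0% of the members were higher.

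**Figure D3:**
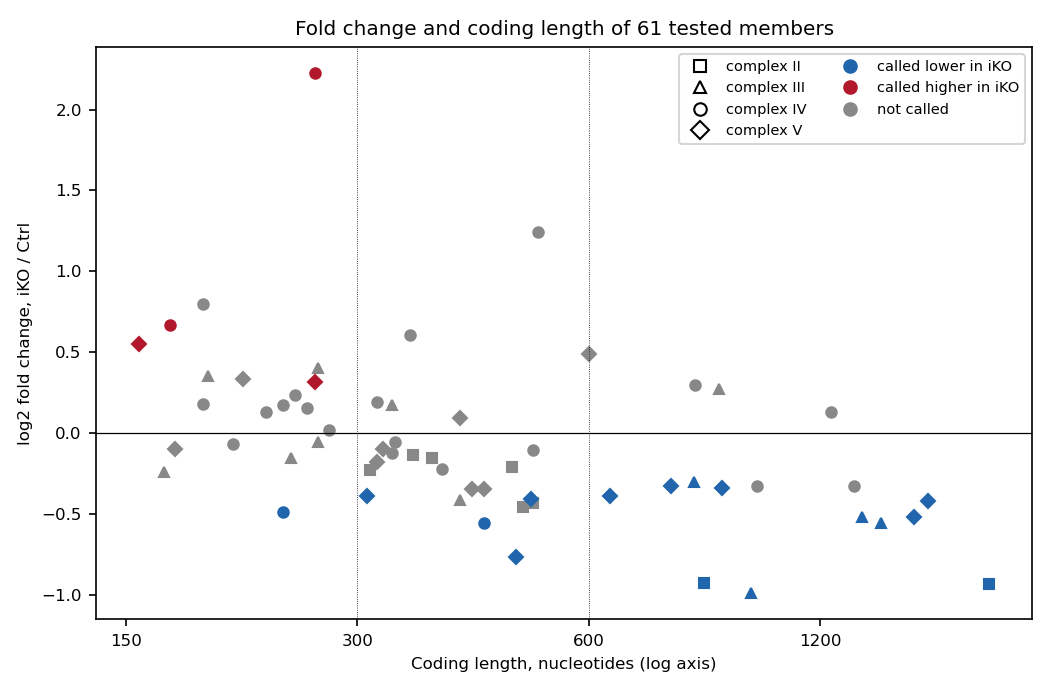
Log2 fold change of iKO-labelled libraries over controls against coding length in nucleotides (log axis) for 61 tested genes, with the shape of a point giving its complex and its colour its call. Dotted lines at 300 and 600 nucleotides bound the 3 length classes, whose medians run from 0.18 through -0.19 to -0.34.

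The subunits of the same complexes that are encoded in the mitochondrial genome had more negative log2 fold changes than any of the 62 tested genes taken by name. This does not extend to the biogenesis factors outside the name rule, given below. mt-Cytb, the cytochrome b of complex III, had 1411, 1355 and 1327 CPM in iKO 1 to 3, against 4495, 4563 and 4021 CPM in controls 1 to 3 (-1.68 ± 0.064). mt-Co1, mt-Co2 and mt-Co3 of complex IV had log2 fold changes of -2.23 ± 0.065, -1.59 ± 0.12 and -2.25 ± 0.12, and mt-Atp6 of complex V had -1.68 ± 0.078. All 5 were called in every alternative run on them. mt-Atp8, at 0.491 to 0.770 CPM in the iKO-labelled libraries and 1.42 to 1.70 CPM in the controls, was not called by edgeR (-1.22 ± 0.59, adjusted p = 0.197) and passed on filtered FPKM.

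The balance between the genomes differed between the groups in each complex. In complex III the CPM of mt-Cytb divided by the summed CPM of 9 nuclear subunits was 1.12, 1.13 and 1.09 in iKO 1 to 3, against 2.97, 2.79 and 2.42 in controls 1 to 3. In complex IV the ratio of 3 mitochondrial to 10 nuclear subunits was 0.572, 0.614 and 0.589 in iKO 1 to 3, against 2.85, 2.79 and 2.32 in controls 1 to 3. In complex V the ratio of 2 mitochondrial to 16 nuclear subunits was 0.0217, 0.0228 and 0.0248 in iKO 1 to 3, against 0.0636, 0.0569 and 0.0503 in controls 1 to 3. Its mitochondrial sum averaged 90.6 CPM in the iKO-labelled libraries and 289 CPM in the controls. Given the level of mt-Atp8 above, nearly all of that sum was mt-Atp6. The groups did not overlap in any of the 3 complexes. The nuclear sum of complex IV was 1559.7 ± 52.8 CPM in the iKO-labelled libraries and 1619 ± 91.9 CPM in the controls (SD, n = 3 each), and the libraries overlapped. That of complex III was 1226 ± 35.2 CPM in the iKO-labelled libraries and 1605 ± 79.4 CPM in the controls, and that of complex V was 3933 ± 288 CPM in the iKO-labelled libraries and 5099 ± 309 CPM in the controls, with the groups apart in both. CPM do not account for length, so the ratios compare groups and are not ratios of molecules.

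**Figure D4:**
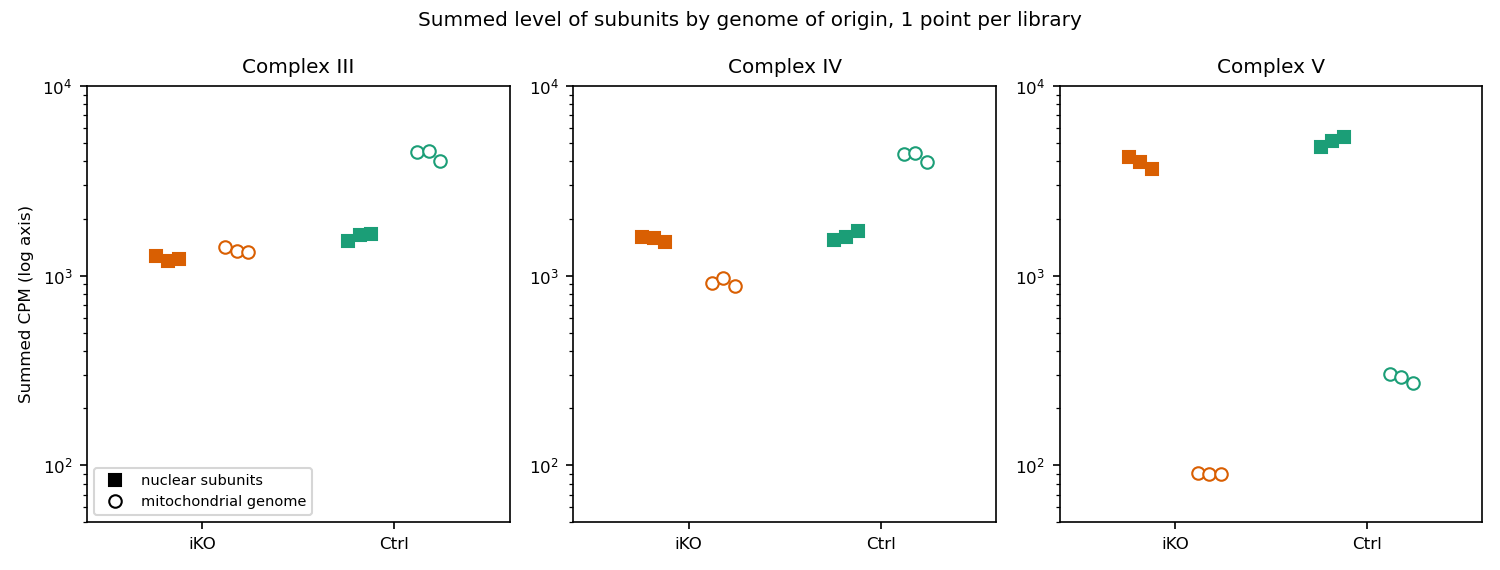
Summed CPM (log axis) of the nuclear subunits (filled squares) and of the subunits encoded in the mitochondrial genome (open circles) of complexes III, IV and V, 1 point per library, with iKO-labelled libraries left of controls. In complexes III and IV the mitochondrial sum of every control lies above its nuclear sum, whereas in the iKO-labelled libraries of complex IV it lies below.

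Genes outside the name rule that serve the same complexes were counted for comparison. Of 28 further biogenesis factors of complexes III to V, 26 were tested, 4 were lower (15.4%) and 1 was higher (3.85%), against 12.3% lower and 8.15% higher among all tested genes, with a median log2 fold change of -0.22. These shares are near those of all genes. Surf1, which acts in complex IV assembly, was higher (1.22 ± 0.19), and Apopt1 (-1.19 ± 0.22), Cmc2 (-1.42 ± 0.29) and Taco1, an activator of COX1 translation (-1.87 ± 0.53), were lower, although the call of Taco1 ended whichever library was left out. Of 14 electron carrier genes, comprising cytochrome c and the enzymes of ubiquinone synthesis, 5 were lower (35.7%) and 1 was higher (7.14%), with a median of -0.34. Coq2, which attaches the side chain of ubiquinone, was lower (-2.47 ± 0.34), as were Pdss1 (-0.74 ± 0.16) and Coq7 (-0.78 ± 0.21), while the kinase-like Coq8a was higher (1.42 ± 0.23). The call of Pdss1 ended without iKO 3 (adjusted p = 0.0518), and that of Coq7 in 10 of 19 alternatives.

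Of 13 nuclear regulators of respiratory genes, edgeR called 0. At an unadjusted p under 0.05 there were 1 lower and 2 higher, and DESeq2 called 1 higher, which was Gabpb1. The smallest adjusted p-values belonged to Gabpb1 (0.26 ± 0.10) and Gabpa (0.32 ± 0.13), partners in an ETS factor of respiratory promoters, to Nrf1 (-0.29 ± 0.11) and to Tfam (-0.20 ± 0.10), which maintains and transcribes the mitochondrial genome. The median of the 13 was -0.02, against 0.02 over all tested genes.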

How the data were processed

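Per the labels' protocols, RNA was extracted from sorted cells with a NucleoSpin RNA XS kit, reverse transcribed and amplified by the Smart-Seq2 protocol, sonicated and made into libraries with a NuGEN Ovation kit, a procedure that does not mark strand. Named in the submitters' processing notes are the build mm10 and the tools STAR, Subread with featureCounts, Trim Galore and DESeq2, without versions or roles. The sources used here state neither the strand setting nor the annotation nor how reads matching several places were treated. The authors deposited raw counts of reads and FPKM values for the same rows. Per the values, the authors' FPKM rest on DESeq2-style size factors, whose ratios they matched within 1.1e-14 over 11966 genes. Rows without a gene name, 551 of 46078, took 0.108% to 0.123% of each library's counts and were not used.

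Samples were grouped by their titles, 3 libraries per group. The counts were fitted with edgeR 4.0.16 in R 4.3.3 (filterByExpr with minimum count 10 and minimum total 15, TMM factors, quasi-likelihood test with the group as the only term, Benjamini-Hochberg adjustment over 16252 genes, calls at an adjusted p under 0.05). Standard errors of log2 fold changes were derived from the F statistic. The test was tried on simulated counts in which 200 genes had been changed. It called 17 of 67 genes changed 1.5-fold, 27 of 67 changed 2-fold and 45 of 66 changed 4-fold. It also made 12 false calls, with 15418 genes tested. Many changes of these sizes were thus missed in the simulation. It changed far fewer genes than the 3315 called in the data, and it drew them from low as well as high levels. Its shares therefore do not give the power for the members, and a gene not called may still differ. Positions and lengths come from GENCODE M21 (GRCm38), in which 67 of the 68 rows were found, and promoters from RefSeq. Isoform shares use counts divided by exon length. The alternatives were RLE and upper-quartile factors, library totals, no count filter, a minimum of 5 CPM in 3 libraries, DESeq2 1.42.0, limma 3.58.1 (voom, and with a trend on log2(FPKM + 1) and log2(FPKM + 0.1) at a mean FPKM of at least 1, and on log2(FPKM + 1) without a filter), the replicate number as a block, removal of mitochondrial genes or of GC and length trends, and each library left out in turn. Tables and figures were made with pandas 2.3.3, numpy 2.4.6, scipy 1.17.1 and matplotlib 3.10.9 under Python 3.11.15.

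Values in every library are given by rule for the 6 genes of each complex with the smallest adjusted p, every gene called higher, the isoform families with at least 10 counts in a library, and Atpif1. Other genes were named after their values had been seen, and from each list outside the name rule up to 4 genes with the smallest adjusted p are given. The members, gene lists and markers were chosen with earlier results of these data known.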

Additional observations from a re-analysis of the deposited data

How the results depend on the processing

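Of the 20 called genes, 7 kept their call in all 19 alternatives (Sdha, Sdhb, Cyc1, Uqcrc2, Cox5a, Cox14 and Atp5h), and none reversed. Of 42 genes not called, 8 passed the test in at least 1 alternative. Library totals moved the median of all genes by 0.13. They gave 10 members lower and 8 higher with a median of -0.000401. By complex they gave 1 higher in complex III (median -0.066), 4 higher in complex IV (median 0.28) and 3 lower in complex V (median -0.20). Upper-quartile factors gave 1 higher in complex III (median -0.12) and a median of 0.22 in complex IV. The filter at 5 CPM gave 1 higher in complex III (median -0.13) and a median of 0.051 in complex IV. Without a count filter 1 gene of complex V was higher. DESeq2 and limma-voom gave 4 lower in complex II, and DESeq2 1 higher in complex III. On log2(FPKM + 1) there were 8 members higher, 4 lower in complex II, 1 higher in complex III and 4 higher in complex IV. On log2(FPKM + 0.1) there were 7 higher, 1 of them in complex III. Without the FPKM filter there were 8 lower and 2 higher, with 2 lower in complex III, 1 higher in complex IV, and 2 lower and 1 higher in complex V. The cause was not tested.

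The replicate block gave 9 members lower and 2 higher, 1 lower in complex IV, and 3 lower and 0 higher in complex V, with 2215 calls over all genes against 3315 without it. The design speaks of 3 pairs of mice without saying whether library numbers mark them. The deviations of libraries with the same number had correlations of -0.067, -0.0021 and -0.059, and those with differing numbers ran from -0.013 to 0.077. The fit without the block was kept, although such values cannot show that the libraries were unpaired. Leaving out a library in turn gave 9 to 15 members lower, 1 to 2 higher and a median of -0.17 to -0.047. The ranges were 2 to 3 lower and a median of -0.51 to -0.19 in complex II, 3 to 4 lower and -0.25 to -0.13 in complex III, 1 to 2 lower, 1 to 2 higher and 0.080 to 0.14 in complex IV, and 3 to 7 lower, 0 to 1 higher and -0.38 to -0.23 in complex V. Members lower numbered 9 without iKO 2, control 2 or control 3 and 10 without iKO 3.

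Signs turned in at least 1 alternative for 12 of the genes not called. Under library totals these were Cox4i1 (0.030), Cox7a2l (0.0058), Cox8a (0.064), Cox6a1 (0.075), Uqcrh (0.077), Atp5j (0.034) and Atp5mpl (0.031), under upper-quartile factors Cox8a (0.010), Cox6a1 (0.021) and Uqcrh (0.023), and under the filter at 5 CPM Cox8a (0.00058), Cox6a1 (0.012) and Uqcrh (0.014). Uqcrh also turned with GC and length trends removed (0.012), and Sdhaf3 under limma-voom (0.0027). With single libraries left out, Sdhaf4 ran from -0.56 to 0.011 (it turned without iKO 2), Cox7a1 from -0.26 to 0.40 (without iKO 3) and Cox6a1 from -0.093 to 0.0017 (without control 3). Sdhaf1 turned without iKO 3 (0.018), Sdhaf3 without iKO 3 (0.074), control 1 (0.053) or control 3 (0.11), Atp5mpl without control 3 (0.031), and Cox19 without iKO 3 (-0.060), control 2 (-0.076) or control 3 (-0.021). The difference in the share of Cox7a1 ran from -0.11 to 0.10 percentage points. Of 1013 values under alternatives of the genes named by rule, 892 kept direction and side of the threshold, 78 lost the call, 32 gained it and 11 reversed.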
